A study of Mus musculus with 15 samples.

Results

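The 9 genes described here serve retinoic acid signalling: the receptors Rara, Rarb and Rarg, the enzymes Dhrs3, Cyp26a1 and Cyp26b1, the binding proteins Crabp1 and Crabp2, and the transporter Stra6. They were taken by symbol from a table of 49585 genes, and the pathway was chosen because Rarb and Dhrs3 stood among the largest rises of day 2 TDECs over 005 cells. The genes were thus chosen on the day 2 and 005 values, which are given as a description: fold changes and thresholds passed are stated for that comparison without a p and support nothing. RNA was sequenced from 15 libraries of C57BL/6 mouse cells, 3 for each of 5 groups. TDECs, tumor-derived endothelial cells, were grown from the glioma stem cell line 005 in EGM-2 endothelial medium at 1% oxygen and collected on day 2 or day 5. TDEC sertraline libraries came from 5-day TDECs given 5 µM of the antidepressant sertraline for 24 h. 005 cells were kept in serum-free stem cell medium, without the low oxygen stated for TDECs. MBMECs, purchased mouse brain microvascular endothelial cells, had a serum medium of their own. All TDECs derive from the 1 line 005, and medium and oxygen changed together between 005 cells and TDECs. MBMECs differ from TDECs in origin and medium, and the low oxygen is stated for TDECs alone. These differences cannot be told apart. No day is given in the labels of the untreated TDEC libraries, which were taken as day 5. Treated cells may have been 1 day older than untreated ones. Their titles, like those of MBMECs, lack a prefix that 005 and untreated TDEC titles carry, and no label explains it. Neither point can be told apart from the drug, nor the prefix from the difference between TDECs and MBMECs.

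Retinoic acid is made from vitamin A in 2 oxidations. Retinol dehydrogenases such as Rdh10 turn retinol into retinaldehyde, and the Aldh1a enzymes turn retinaldehyde into retinoic acid. Dhrs3 runs the first step backwards, and the Cyp26 enzymes oxidise retinoic acid for disposal. The acid binds RAR receptors, which sit on DNA with RXR partners at paired short repeats and switch on nearby genes. In many cell types Rarb, Dhrs3, Cyp26a1, Cyp26b1, Crabp2 and Stra6 are themselves induced by retinoic acid, so several members are both parts of the pathway and readouts of it. In the developing brain the pathway is known for neuronal differentiation and hindbrain patterning.

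The best known RAR site has 5 bases between its repeats (DR5) and lies in the Rarb promoter. RefSeq windows of 300 bases on GRCm38.p6, from 250 bases before a transcript start to 50 after it, were found for 8 of the 9 members (17 windows) and searched for exact direct repeats on both strands, each unit being AGGTCA (the consensus), AGTTCA (common in DR5 sites), GGGTCA (its first base changed) or GGTTCA (both changes together). A DR5 match stood in 2 member windows, those of Rarb and Cyp26a1, and in 32 of all 32851 windows (0.0974%). The 120 bases before each of these starts are shown because these are the members with a match, and capitals mark the DR5 match.
Rarb: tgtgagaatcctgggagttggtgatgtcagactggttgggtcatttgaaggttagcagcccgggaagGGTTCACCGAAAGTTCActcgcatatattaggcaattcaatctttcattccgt
Cyp26a1: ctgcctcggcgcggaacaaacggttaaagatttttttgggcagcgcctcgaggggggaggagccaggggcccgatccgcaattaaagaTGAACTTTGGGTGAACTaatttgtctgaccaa
The Rarb match, on the gene's own strand, covers chr14:16575513-16575529 (minus strand of the chromosome), 53 to 37 bases before the start. The Cyp26a1 match reads as the repeat on the opposite strand and covers chr19:37697776-37697792, 32 to 16 bases before the start. Repeats with 2 bases between them (DR2, 0.268% of windows) or 1 base (DR1, 0.222%) were matched in no member window. A match is a description of letters, not of binding.

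The members lie on 8 mouse chromosomes in mm10. The receptors are Rara (chr11:98927818-98974942), Rarb (chr14:16430842-16575472) and Rarg (chr15:102234938-102257517). The enzymes are Dhrs3 (chr4:144892827-144928209), Cyp26a1 (chr19:37697808-37701528) and Cyp26b1 (chr6:84571414-84593908). The carriers are Crabp1 (chr9:54764748-54773110), Crabp2 (chr3:87948666-87953376) and Stra6 (chr9:58063788-58153996). The Rarb interval counted ends beside the start whose promoter is shown, while GENCODE M21 carries the gene on to 16819156, so reads in first exons farther upstream were not in its count. Values are counts of reads over a gene, or CPM, the usual unit of counts relative to library size, here scaled by TMM (a normalization on the bulk of genes) over all 15 libraries. Differences were taken by edgeR's two-sided quasi-likelihood test, and a gene was called at a Benjamini-Hochberg adjusted p under 0.05 with a fold change above 2. "Rose" and "fell" are used below only of called genes.

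The libraries held 11283680 to 17093061 counts. Replicate 3 stood apart in 005 and on day 2, at a per-gene chi-square of 11.1 to 11.7 against its group mates where the other pairs had 2.15 and 2.50, as did replicate 2 of TDEC sertraline (6.97 to 7.27 against 2.28). Mitochondrial genes took 3.52% ± 0.067% of counts in day 5 TDECs and 1.53% to 2.56% on average in the other groups. Summed over 10 endothelial markers, TDECs and 005 cells had 5.54 to 13.5 CPM, against 7654 to 7875 CPM in MBMECs. In the RNA of these genes TDECs thus stayed near 005 cells. The paper bases the endothelial label of TDECs on immunostaining, tube formation and enriched vessel genes, and a sum of marker RNA does not measure these. Cldn5 stood at 0 counts in all TDEC and 005 libraries, and Tie1 at 0 in the 3 TDEC groups. Emcn went the other way, with 0 counts in 005 cells and some in each TDEC group. Of the 10 markers, Egfl7 was the most abundant in 005 cells and Kdr in each TDEC group. The 10 neural stem cell markers summed to 1453 to 3553 CPM in TDECs and 005 cells, against 258 to 259 CPM in MBMECs, where Sox2, Olig2 and Sox9 had no counts. Several marker lists also differed between the stages, not all in the same direction. Neural stem cell markers summed to 3453 to 3553 CPM in 005 cells, 2093 to 2653 on day 2 and 1728 to 1785 on day 5, and neuronal markers to 646 to 782, 672 to 750.3 and 343 to 347 CPM. Astrocyte markers summed to 567 to 576 CPM in 005 cells, 1036 to 1079 on day 2 and 828 to 910.1 on day 5, mural markers to 82.0 to 87.8, 151 to 175 and 170.2 to 178 CPM, fibroblast markers to 58.0 to 59.2, 15.8 to 18.7 and 20.9 to 24.0 CPM, and microglial markers to 13.1 to 13.6, 16.6 to 18.2 and 33.6 to 39.4 CPM. With sertraline, neural stem cell markers summed to 1453 to 1539 CPM and neuronal markers to 241 to 271 CPM, both below untreated day 5 TDECs, and astrocyte markers to 970.0 to 1008 CPM, above them. The part of cell mixture in the results was not tested.

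**Figure D1:**
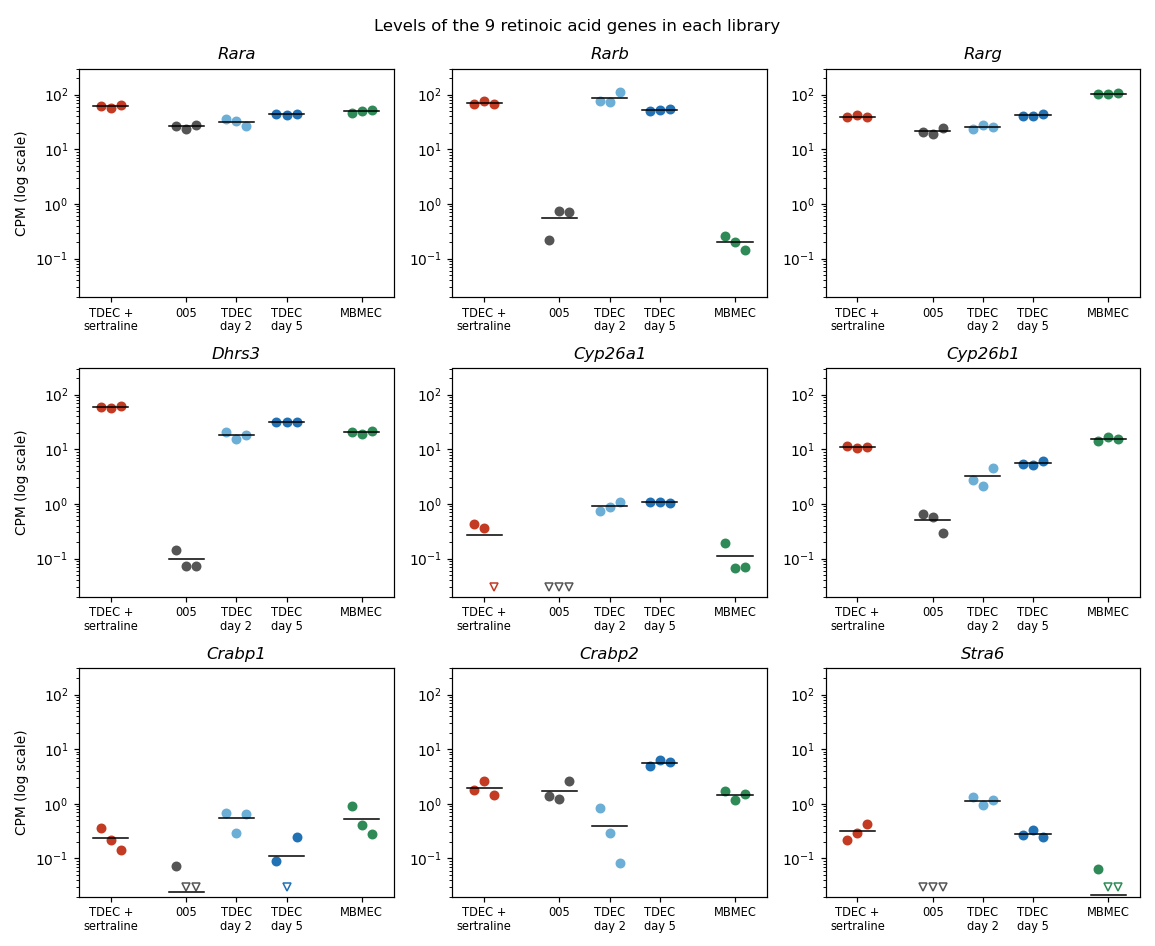
CPM of the 9 members in every library, on a log axis; filled points are libraries, open triangles at the foot are libraries with 0 counts, and black lines are group means. Rarb and Dhrs3 were at or below 0.730 CPM in 005 cells and above 15 CPM in every TDEC library, and in MBMECs Dhrs3 was present while Rarb was near 0.

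Among the receptors, Rarb was the one that changed most. It had 0.216, 0.730 and 0.721 CPM in 005 cells, 75.2, 73.2 and 110.2 CPM on day 2, and 50.3, 51.7 and 55.6 CPM on day 5. Every TDEC library lay far above every 005 library, and the day 2 libraries all lay above those of day 5. The log2 fold change was 7.24 ± 0.28 (SE, n = 3 each) for day 2 over 005, a 151-fold higher level, and 6.55 ± 0.19 for day 5 over 005. Day 5 lay 0.70 ± 0.14 below day 2 on the log2 scale, under the fold threshold. Among genes with at least 10 CPM in either group and an adjusted p under 0.05, Dhrs3 and Rarb ranked first and second of 2335 genes higher on day 2, which is the pattern they were chosen for. As a bulk measurement, more cells with the RNA and more RNA per cell cannot be told apart.

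The other 2 receptors, Rara and Rarg, were present throughout. Rara had 26.2 ± 2.43 CPM in 005 cells, 31.6 ± 4.84 on day 2 and 43.5 ± 0.621 on day 5 (SD, n = 3). Rarg had 21.5 ± 2.92, 25.9 ± 2.07 and 42.2 ± 2.30 CPM in the same order. For both genes the libraries of 005 and day 2 overlapped, with log2 fold changes of 0.26 ± 0.13 and 0.25 ± 0.12, whereas every day 5 library was above every library of either earlier stage. Against 005, day 5 was 0.74 ± 0.09 higher for Rara (edgeR adjusted p = 1.0e-05) and 0.98 ± 0.10 higher for Rarg (adjusted p = 3.7e-06), both under the fold threshold. Rarg passed that threshold, at 1.09, without 005 replicate 3.

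Per kb of exon, which allows levels of different genes to be set side by side, the 3 receptors together had 11.2 ± 1.21 CPM in 005 cells, 33.1 ± 3.79 on day 2 and 31.9 ± 1.20 on day 5. Rarb made up 1.15% ± 0.636% of this receptor RNA in 005 cells, 59.2% ± 7.18% on day 2 and 37.8% ± 0.785% on day 5. Day 2 replicate 3, which stood apart over all genes, had the highest share, 67.5%, and the other day 2 libraries had 55.6% and 54.6%. The totals of the day 2 and day 5 libraries overlapped. On day 5 the 3 receptors had similar shares, with Rara at 31.2% ± 1.01% and Rarg at 31.0% ± 0.560%.

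**Figure D2:**
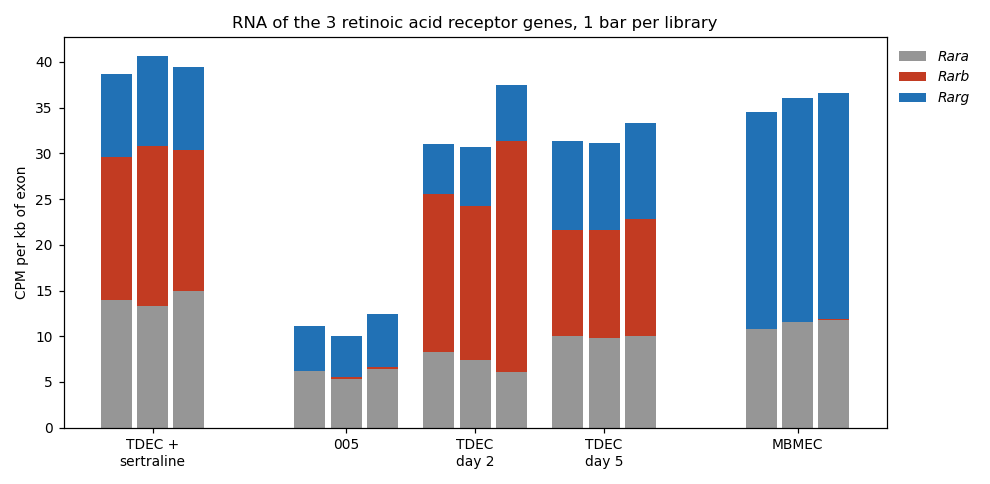
Stacked CPM per kb of exon of Rara, Rarb and Rarg, with 1 bar per library in 5 groups. Rarb is the largest block in all day 2, day 5 and sertraline libraries and is hardly visible in 005 cells and MBMECs, where it made up 1.15% and 0.130% of receptor RNA.

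Dhrs3, the enzyme that returns retinaldehyde to retinol, was nearly silent in 005 cells, with 2, 1 and 1 counts. It had 279, 213 and 225 counts on day 2 and 355, 389 and 393 counts on day 5. In CPM this was 0.0963 ± 0.0411 in 005 cells, 18.3 ± 2.86 on day 2 and 31.8 ± 0.210 on day 5, with no overlap between any of the 3 stages. The log2 fold change was 7.42 ± 0.32 for day 2 over 005 and 8.24 ± 0.22 for day 5 over 005, and day 5 exceeded day 2 by 0.81 ± 0.12. Of the 3 stages, Rarb was highest on day 2 and Dhrs3 on day 5. Rdh10, which catalyses the opposite reaction, had 10.2 ± 0.696 CPM in 005 cells, 8.55 ± 1.52 on day 2 and 15.4 ± 0.886 on day 5. Per kb of exon, the ratio of Dhrs3 to Rdh10 RNA was 0.0132 ± 0.00465 in 005 cells, 3.08 ± 0.487 on day 2 and 2.95 ± 0.152 on day 5.

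The enzymes that break down retinoic acid appeared as well, at lower levels. Cyp26a1 had 0, 0 and 0 counts in 005 cells, 10, 12 and 13 on day 2, and 12, 13 and 13 on day 5. Taking 3 counts for the whole 005 group as the floor, that is at least 12.2-fold higher on day 2, where it was not tested, and at least 14.8-fold higher on day 5. It passed the filter on low counts through its day 5 libraries alone, so no p is given for it over 005. Between day 5 and day 2 its libraries overlapped (log2 fold change 0.26 ± 0.35, adjusted p = 0.54). Cyp26b1 had 9, 8 and 4 counts in 005 cells, 37, 30 and 56 on day 2, and 60, 64 and 74 on day 5. All day 5 libraries were above all day 2 libraries, and these were above all of 005. Its log2 fold change over 005 was 2.61 ± 0.43 on day 2 and 3.44 ± 0.29 on day 5. In both comparisons with 005 Cyp26b1 passed the filter through its TDEC libraries alone, so no p is given for them. Day 5 exceeded day 2 by 0.82 ± 0.27 (adjusted p = 0.021), under the fold threshold, and by 1.17 without day 2 replicate 3, past it.

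Crabp2, which carries retinoic acid to the receptors in the nucleus, followed another course. It had 19, 17 and 36 counts in 005 cells, 11, 4 and 1 on day 2, and 55, 76 and 72 on day 5. The day 2 libraries were the lowest and the day 5 libraries the highest, with no overlap. It lay 2.09 ± 0.58 below 005 on the log2 scale on day 2, 1.66 below it without 005 replicate 3, 1.85 below it without day 2 replicate 2, and 1.22 below it without the replicate 3 of either group, and in these last 3 fits it lay short of the thresholds. On day 5 it rose over day 2 by 3.78 ± 0.43 (13.7-fold) and over 005 by 1.71 ± 0.27 (3.28-fold, adjusted p = 1.3e-04). Against day 2 Crabp2 passed the filter on low counts through its day 5 libraries alone, so no p is given there. Its relative Crabp1, a cytosolic retinoic acid binder, had 1 count in the 005 group, 21 counts on day 2 and 4 on day 5, and was too low to be tested in any comparison. The day 2 ratio over 005 was 21.9, with a 95% exact counting interval of 3.53 to 907.

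Stra6, the membrane receptor through which cells take retinol from its carrier protein in blood, was a low, transient gene. It had no counts in 005 cells, 18, 13 and 14 on day 2, and 3, 4 and 3 on day 5. Day 2 was at least 15.7-fold above 005, and every library of day 5 was below every library of day 2. The log2 fold change of day 5 over day 2 was -1.99 ± 0.45, with no p given since it passed the filter on low counts through its day 2 libraries alone. Over 005, day 5 was at least 3.90-fold higher but was not tested.

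Of the 7 members that passed the filter on day 2, 4 lay past the thresholds above 005 (Rarb, Dhrs3, Cyp26b1 and Stra6) and 1 below (Crabp2), where 5.35% and 4.48% of all 15344 genes were called. This is the contrast that chose the pathway, and nothing is read from that count. On day 5, 5 of 7 were called higher than in 005 (13.1% of all genes) and 0 lower (10.4%), the last also by DESeq2 and at an unadjusted p under 0.05. Rarb and Dhrs3 are among the 5, and they, Cyp26a1 and Cyp26b1 passed the filter through their day 5 libraries alone, so that a count of higher calls was in part fixed in advance. Crabp2 was the called member that passed it in both groups. Between day 5 and day 2, 1 of 8 was called higher (11.1% of all genes) and 1 lower (9.35%). These were Crabp2 and Stra6, each of which passed the filter through its higher group alone. The comparisons of day 5 share their 005 or day 2 libraries with the contrast that chose the genes, so no p is given for Rarb and Dhrs3 in them. Plain library totals in place of TMM moved the median of all genes for day 5 over 005 by -0.13 on the log2 scale and changed no member's call there.

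**Figure D3:**
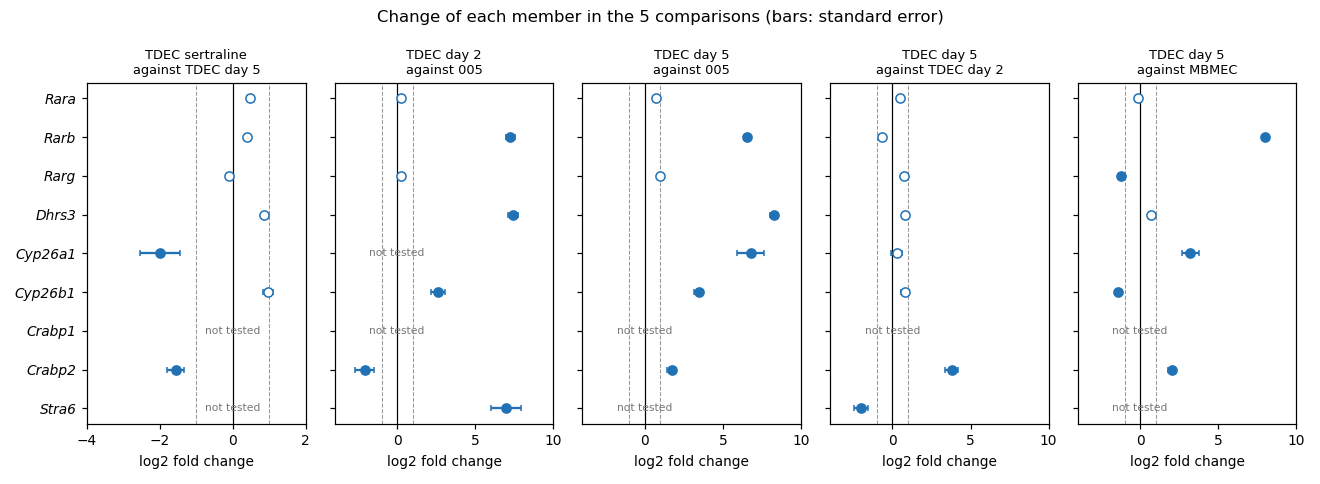
Log2 fold change of each member in the 5 comparisons, first-named group over second; bars are standard errors, filled points were called, open points were not, and dashed lines mark the fold threshold. Day 2 over 005 is the contrast that chose the pathway. Dhrs3 and Rarb lie between 6.55 and 8.24 in both comparisons with 005, and in the sertraline comparison Crabp2 and Cyp26a1 are the called points, both lower.

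Set against MBMECs, day 5 TDECs had another make-up of receptor RNA. Rarb had 50.3, 51.7 and 55.6 CPM in TDECs, against 0.258, 0.205 and 0.142 CPM in MBMECs. It was 8.01 ± 0.17 higher on the log2 scale (258-fold). Since it passed the filter on low counts through TDECs alone, no p is given. Rarg had 41.4, 40.4 and 44.8 CPM in TDECs, against 101.0, 104.1 and 105.5 CPM in MBMECs, and was lower by 1.23 ± 0.06 (adjusted p = 4.7e-17). Rara did not pass the test at -0.12 ± 0.07 (adjusted p = 0.090), although all its TDEC libraries (42.8 to 43.9 CPM) lay below all MBMEC libraries (47.0 to 51.6 CPM). Receptor RNA summed per kb came to 31.9 ± 1.20 CPM in TDECs, against 35.7 ± 1.07 CPM in MBMECs, of which Rarg made up 31.0% ± 0.560% in TDECs and 68.0% ± 0.553% in MBMECs.

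The breakdown enzymes were split between the same groups. Cyp26a1 had 12, 13 and 13 counts in TDECs, against 3, 1 and 1 counts in MBMECs, a log2 fold change of 3.20 ± 0.55. It passed the filter on low counts through TDECs alone, and no p is given. Cyp26b1 had 5.34, 5.25 and 6.02 CPM in TDECs, against 14.4, 16.8 and 15.6 CPM in MBMECs, and was lower by 1.42 ± 0.14 (adjusted p = 1.2e-10). Per kb, Cyp26a1 made up 34.4% ± 1.79% of the RNA of both genes in TDECs and 1.95% ± 1.37% in MBMECs, and both genes summed to 1.58 ± 0.0760 CPM in TDECs, against 2.97 ± 0.191 CPM in MBMECs. Dhrs3 was present in both. TDECs had 31.8 ± 0.210 CPM of it, against 20.5 ± 1.69 CPM for MBMECs, a log2 fold change of 0.70 ± 0.09 (adjusted p = 1.6e-08) under the fold threshold. Crabp2 had 55, 76 and 72 counts in TDECs, against 27, 17 and 21 counts in MBMECs, and was higher by 2.01 ± 0.23 (adjusted p = 6.2e-09). Stra6 had 10 counts over the TDEC group and 1 over the MBMEC group, a ratio of 13.0 with a counting interval of 1.84 to 563, and Crabp1 had 4 counts and 24 counts. Of the 7 members tested, 3 were called higher in TDECs and 2 lower, where 28.1% and 20.8% of all genes were called. Rarb and Cyp26a1, of the higher ones, passed the filter through TDECs alone. MBMECs also differed in all marker lists given above, and the part of cell identity in these values cannot be told apart from culture.

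With sertraline, none of the 3 receptors passed the fold threshold. Rarb had 68.1, 76.4 and 67.5 CPM in treated TDECs, against 50.3, 51.7 and 55.6 CPM in untreated TDECs. The groups did not overlap, and the log2 fold change was 0.39 ± 0.07 (adjusted p = 3.2e-04). Rara had 60.8, 58.0 and 65.1 CPM in treated TDECs, against 43.9, 42.8 and 43.8 CPM in untreated TDECs, a log2 fold change of 0.46 ± 0.07 (adjusted p = 7.2e-05). Both passed the adjusted p and neither the fold threshold. Rarg had overlapping libraries at -0.12 ± 0.07 (adjusted p = 0.23).

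The enzyme genes lay on both sides of their untreated levels after the drug. Dhrs3 had 58.7, 57.8 and 61.4 CPM in treated TDECs, against 31.6, 31.9 and 32.0 CPM in untreated TDECs. This was its highest level of the 5 groups, with a log2 fold change of 0.86 ± 0.07 (1.82-fold, adjusted p = 1.2e-07). Cyp26b1 had 11.6, 10.7 and 11.1 CPM in treated TDECs, against 5.34, 5.25 and 6.02 CPM in untreated TDECs, a log2 fold change of 0.97 ± 0.14 (1.96-fold, adjusted p = 4.8e-05). Both lie just under the fold threshold, and Cyp26b1 passed it at 1.04 with plain library totals, at 1.03 without day 5 replicate 3 and at 1.00 without sertraline replicate 2. Cyp26a1 had 6, 5 and 0 counts in treated TDECs, against 12, 13 and 13 in untreated TDECs, and lay 2.00 ± 0.55 below untreated TDECs on the log2 scale, or 1.43 below without treated replicate 3, the library with no counts. It passed the filter on low counts through the untreated group alone, and no p is given. Per kb, the share of Cyp26a1 in the RNA of both breakdown genes was 5.88% ± 5.11% in treated TDECs and 34.4% ± 1.79% in untreated TDECs.

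Crabp2 fell with sertraline. It had 25, 36 and 20 counts in treated TDECs, against 55, 76 and 72 in untreated TDECs, a change of -1.57 ± 0.23 on the log2 scale (2.96-fold lower, adjusted p = 8.5e-05). All treated libraries were below all untreated ones. Stra6 had 3, 4 and 6 counts in treated TDECs, against 3, 4 and 3 in untreated TDECs, and Crabp1 had 10 counts over the treated group and 4 over the untreated group, and neither was tested. Of the 7 members tested, 0 were called higher (1.82% of all genes) and 2 lower (3.26%), with 4 higher and 2 lower at an unadjusted p under 0.05 and 0 higher and 2 lower by DESeq2. The 2 were Crabp2 and Cyp26a1, of which Crabp2 passed the filter in both groups. At any fold, 6 of 7 passed the adjusted p, against 35.3% of all genes. Without sertraline replicate 2, which stood apart, 1 was called higher and 2 lower.

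Ordering the groups by level shows how differently the members were placed. Rarb was highest on day 2 (86.2 ± 20.8 CPM), overlapping with TDEC sertraline (70.7 ± 4.96 CPM), and lowest in 005 cells and MBMECs, which overlapped each other. Dhrs3 and Rara were highest in TDEC sertraline, Cyp26b1 and Rarg in MBMECs, and Crabp2 and Cyp26a1 in day 5 TDECs, where Cyp26a1 overlapped with day 2. Stra6 was highest on day 2, with no overlap with any other group. The order of Crabp1 rests on 1 to 24 counts a group, and each of its neighbouring groups overlapped. Over the 15 libraries, log2 CPM of Rarb had a Pearson r of 0.87 with Stra6, 0.75 with Cyp26a1 and 0.60 with Dhrs3. The r of Rarb was 0.22 with Rara, 0.18 with Cyp26b1, 0.12 with Crabp1, -0.03 with Crabp2 and -0.35 with Rarg. Log2 CPM of Dhrs3 had an r of 0.88 with Cyp26b1 and 0.79 with Rara. Its r was 0.58 with Cyp26a1, 0.54 with Crabp1, 0.53 with Stra6, 0.52 with Rarg and 0.09 with Crabp2. The points share groups and libraries, and these values are descriptions.

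Among 10995 genes with at least 10 CPM in their highest group, those whose log2 CPM was most like that of Rarb over the 15 libraries were Foxc1 (r = 0.994), Cplx2 (0.991), Mt3 (0.983), Mfsd9 (0.983) and Bambi (0.982). Foxc1, a forkhead transcription factor, had 7.38 CPM in 005 cells, 37.1 on day 2 and 36.6 on day 5, while it had 41.2 CPM after sertraline and 6.92 CPM in MBMECs. Mt3, a brain metallothionein, had 5.57, 132 and 150.1 CPM in the 3 stages of the time course, and 1.68 CPM in MBMECs. For Dhrs3 the genes most alike were Hadh (0.978), Csnk1a1 (0.972), Csf1 (0.971), Igfbp3 (0.965) and Sema4b (0.964). This r does not weigh the size of a change. Hadh had 54.5 CPM in 005 cells, 86.2 on day 2 and 84.7 on day 5, and Csnk1a1 had 290, 401 and 423 CPM. Both changed far less than Dhrs3. Igfbp3, a carrier of insulin-like growth factors, had 550.3 CPM in 005 cells, 2515 on day 2 and 4190 on day 5.

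Aldh1a3, an enzyme of the last step to retinoic acid, followed the stages differently from Dhrs3. It was nearly the only Aldh1a gene of the 005 and TDEC groups, at 97.5% to 99.5% of Aldh1a RNA per kb on average. It had 47.1 ± 6.21 CPM in 005 cells, 25.5 ± 5.83 on day 2 and 129 ± 5.16 on day 5. Day 2 was 0.90 ± 0.16 below 005 on the log2 scale, under the fold threshold, and passed it at -1.07 without day 2 replicate 2. It rose on day 5 over day 2 by 2.35 ± 0.12 (adjusted p = 3.7e-08) and over 005 by 1.47 ± 0.09 (adjusted p = 2.7e-08). In MBMECs Aldh1a3 had no counts, so that day 5 TDECs were at least 1998-fold higher. There Aldh1a1 was the Aldh1a gene, with 3, 5 and 2 counts in day 5 TDECs, against 1360, 1101 and 1273 counts in MBMECs (log2 fold change -8.12 ± 0.17). Aldh1a1 passed the filter on low counts through MBMECs alone, so no p is given for it. Aldh1a2 had at most 1 count in any group. With sertraline Aldh1a3 had 65.4 ± 2.43 CPM in treated TDECs and 129 ± 5.16 in untreated TDECs, and fell by 1.02 ± 0.06 (adjusted p = 2.8e-09). That call sits on the fold threshold and is lost at -0.95 with plain library totals, at -0.999 without day 5 replicate 3 and at -0.98 without sertraline replicate 3.

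**Figure D4:**
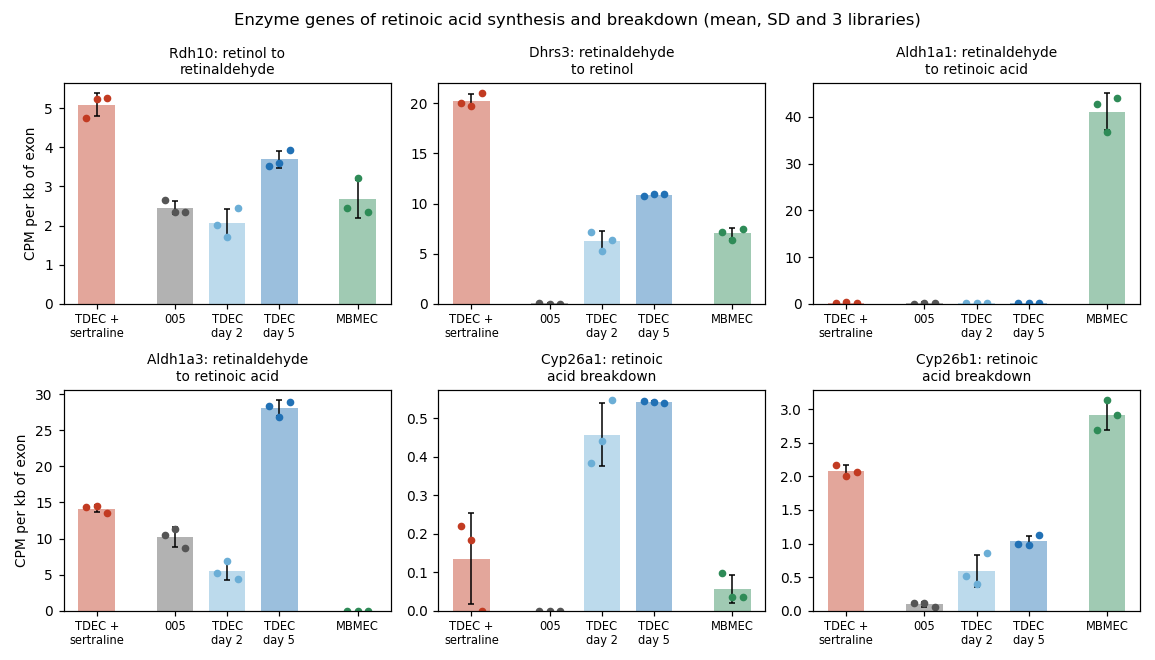
CPM per kb of exon of 6 enzyme genes in the 5 groups, each with its own linear axis starting at 0; bars are means, whiskers SD over 3 libraries, points libraries. Aldh1a3 is at 0 and Aldh1a1 at 41.1 in MBMECs, and with sertraline Dhrs3 and Cyp26b1 lie above and Aldh1a3 and Cyp26a1 below their levels in untreated day 5 TDECs.

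Of the RXR partners, Rxra had 44.4 ± 1.31 CPM in 005 cells, 40.6 ± 5.35 on day 2 and 63.5 ± 1.49 on day 5. Rxrb had 34.9 ± 3.18, 20.8 ± 3.01 and 49.9 ± 2.41 CPM, and rose between day 2 and day 5 by 1.27 ± 0.10 (adjusted p = 1.1e-06). Against 005, day 5 was 0.53 ± 0.07 higher for Rxra and 0.53 ± 0.08 higher for Rxrb (adjusted p = 2.4e-05 and 1.5e-04), under the fold threshold. Against MBMECs the changes in day 5 TDECs were -0.17 ± 0.06 for Rxra (adjusted p = 0.011) and 0.06 ± 0.07 for Rxrb (adjusted p = 0.41), and with sertraline -0.14 ± 0.06 (adjusted p = 0.076) and -0.06 ± 0.07 (adjusted p = 0.56). Rxrg had at most 8 counts in any group.

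A list of 96 further retinoid genes was counted to set the members in their pathway. On day 2, 3 of 61 tested were called higher than in 005 (5.35% of all genes) and 2 lower (4.48%), all of them reported target genes, with a median log2 fold change of -0.06 against -0.02 over all genes. The higher ones were Rai14 (1.44 ± 0.19), Gbx2 (1.56 ± 0.29) and Tgm2, a transglutaminase long known as a retinoic acid target (1.97 ± 0.37). The lower ones were Btg2, an antiproliferative gene (-1.46 ± 0.20), and Ret (-3.28 ± 0.48). None of 10 tested synthesis genes, 8 storage and transport genes, 18 cofactor genes, 2 RXR genes and 1 breakdown gene was called by edgeR or DESeq2 on day 2. At an unadjusted p under 0.05, 3 synthesis genes were higher and 2 lower, 4 cofactor genes higher and 8 lower, 2 storage and transport genes lower and 1 RXR gene lower.

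On day 5, 11 of 63 were called higher than in 005 (13.1% of all genes) and 4 lower (10.4%), with a median of 0.28 against -0.01. By smallest p the higher ones were Lrp1, a lipoprotein receptor (1.30 ± 0.06), Aldh1a3, the coactivator Ncoa3 (1.23 ± 0.08) and the retinol dehydrogenase Rdh5 (1.91 ± 0.23), and the lower ones were Fabp5, a fatty acid carrier that also delivers retinoic acid to Ppard (-1.57 ± 0.06), Akr1b3 (-1.31 ± 0.10), Hoxa4 (-1.06 ± 0.14) and Ret (-3.87 ± 0.57). Between day 5 and day 2, 10 of 63 were called higher (11.1% of all genes) and 3 lower (9.35%), with a median of 0.14 against 0.00. Lrp1 (1.34 ± 0.05), Aldh1a3, Rxrb and Btg2 (1.93 ± 0.19) led the rises. Fabp5 (-1.59 ± 0.06), Lpl (-1.16 ± 0.08) and Gbx2 (-1.11 ± 0.27) were the falls, and Gbx2 was at -0.72 without day 2 replicate 3.

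Against MBMECs, 24 of 71 were called higher in TDECs (28.1% of all genes) and 20 lower (20.8%), with a median of 0.28 against 0.09. The higher ones with the smallest p were Lrp1 (3.50 ± 0.06), Aldh1a3, Dusp6 (1.65 ± 0.04) and Lpl, which had 1126 counts over the TDEC group and 2 counts over the MBMEC group. The lower ones were Tgm2 (-5.05 ± 0.09), Gprc5a (-6.92 ± 0.12), Akr1b8 (-5.03 ± 0.09) and Rai14 (-3.76 ± 0.07). With sertraline, 0 of 63 were called higher (1.82% of all genes) and 4 lower (3.26%), with a median of -0.10 against 0.00, and with 8 higher and 21 lower at an unadjusted p under 0.05 and 0 called higher by DESeq2. The lower ones included Btg2 (-1.55 ± 0.06, adjusted p = 7.3e-11), Aldh1a3 and the carotenoid oxygenase Bco2. Bco2 was lower by 1.19 ± 0.33. Its call is lost, by the adjusted p, at -1.04 without day 5 replicate 2 and at -1.01 without sertraline replicate 3. All libraries of Bco2 passed the filter on low counts in the untreated group alone, so no p is given. Rdh10 was higher by 0.43 ± 0.10 (adjusted p = 0.0032), under the fold threshold.

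**Figure D5:**
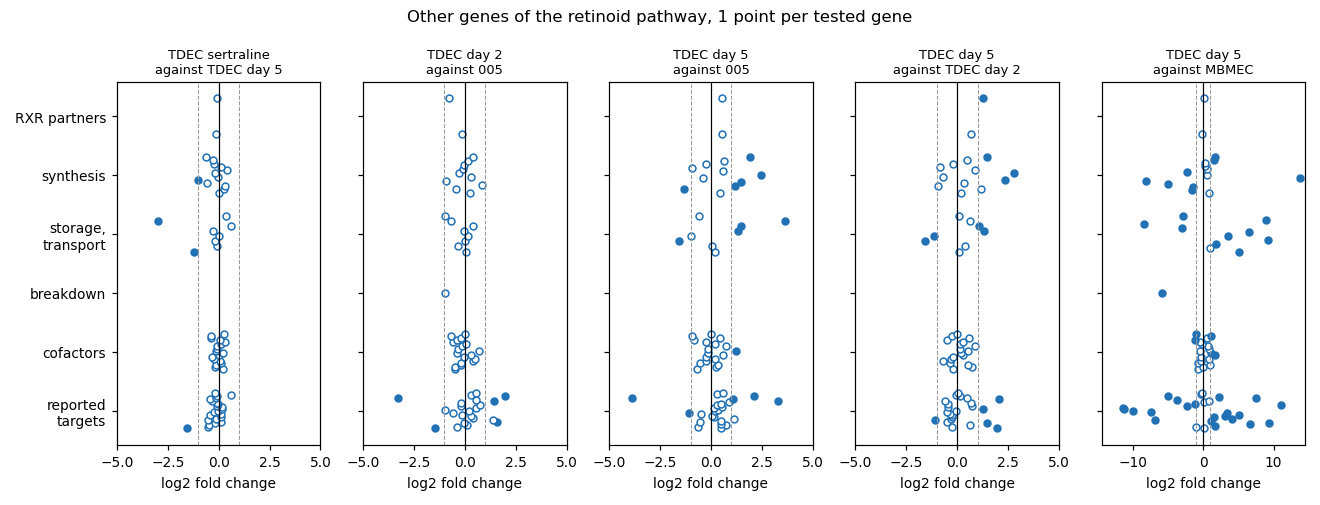
Log2 fold change of the other retinoid genes tested in each comparison, first-named group over second, by role; filled points were called, open ones were not, dashed lines mark the fold threshold, and the MBMEC panel has a wider axis. With sertraline the 4 called points all lie below 0, and on day 2 every called point is a reported target gene.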

How the data were processed

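Directional poly(A) RNA libraries were sequenced by the authors. The table they deposited gives raw read counts for each gene, as whole numbers without normalization. Per the submitters' processing notes, the build was mm10, and the tools named are HISAT2 (2.1.0), featureCounts (1.6.3), Trimmomatic (0.38) and bcl2fastq (2.19). The annotation release, the strand setting of the counting and the treatment of multiply aligned reads are not given in the sources used here. No counted exon of a member overlapped an exon of another gene.

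In each of 5 comparisons the 6 libraries were fitted with edgeR 4.0.16 under R 4.3.3 (filterByExpr, minimum count 10; TMM; glmQLFit and glmQLFTest; Benjamini-Hochberg over all tested genes), tested on simulated data. The SE is the log2 fold change divided by the root of the F statistic. Exon lengths came from GENCODE M21, clipped to the counted interval. Log2 CPM for likeness used a prior count of 2. Counting intervals have a confidence of 0.95 and cover counting error only, as do bounds against a floor of 3 counts. Untreated and treated TDECs are described as biological replicates, and nothing says so for the other groups, where p-values measure only the spread between samples.

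The members, lists and tests were chosen with earlier results of these data known. Named were all 9 members, every Aldh1a and Rxr gene, up to 4 called genes of the retinoid lists per direction and comparison by smallest p, and the 5 genes most like Rarb and Dhrs3, leaving out predicted genes. Rdh10 and the Hox genes were also named after their values were seen, and some genes of the lists are not reported here. Alternatives were other scalings, DESeq2 1.42.0, a filter of at least 1 count, all 15 libraries in 1 fit, a replicate block and leaving out libraries.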

Additional observations from a re-analysis of the deposited data

How the results depend on the processing

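Over 439 alternative fits of a member's log2 fold change, none turned its direction and 429 kept their side of the thresholds. The exceptions were Rarg on day 5 over 005 (1.00 with all 15 libraries, 1.09 without 005 replicate 3, 1.01 without day 5 replicate 2), Cyp26b1 on day 5 over day 2 and with sertraline (values given above), and, as a description, Crabp2 on day 2, whose difference from 005 no longer passed at -1.66 without 005 replicate 3, -1.85 without day 2 replicate 2 and -1.22 without the replicate 3 of both groups, the last chosen after seeing the data. The counts of members called ranged, with 1 library left out, from 4 to 6 for day 2 over 005, 5 to 6 for day 5 over 005, 2 to 3 for day 5 over day 2, 5 to 5 for day 5 over MBMECs and 2 to 3 with sertraline. The only gene among the other retinoid genes named that turned direction was Rxrb with sertraline, at 0.014 with plain library totals. The other retinoid genes called with sertraline numbered 2 without sertraline replicate 3. Levels in MBMECs were lower with plain library totals, such as 94.0 CPM for Rarg. Equal replicate numbers did not pair the samples (correlations of -0.11 to 0.02), and a fit with the replicate block called 5, 5, 2, 5 and 2 members in the order above. It called 1402 genes on day 2 and 787 with sertraline, and it changed no member's call. Members under about 40 counts a group rest on few reads, and Crabp1 could not be tested at this depth.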

Other observations

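The Hox genes, whose clusters are classic retinoic acid targets in the embryonic hindbrain, differed between TDECs and MBMECs in opposite directions by cluster. Hoxa5 had 29.1 ± 1.85 CPM in 005 cells, 33.9 ± 2.60 on day 2 and 32.7 ± 2.88 on day 5, and 3.34 ± 0.134 in MBMECs. Hoxb4 had no counts in the 12 libraries of 005 cells and TDECs, and 383, 359 and 383 counts in MBMECs, so that day 5 TDECs were at least 289-fold lower. Hoxb5 showed the same split, with 0 counts in those 12 libraries and 452, 351 and 371 counts in MBMECs. Hoxa2, Hoxa3, Hoxa4 and Hoxa5 were called higher in day 5 TDECs than in MBMECs, and Hoxb2, Hoxb3, Hoxb4, Hoxb5 and Hoxd4 were called lower. Over the time course Hoxa4 was the one of these that fell on day 5 against 005. Hoxd4 was called higher on day 5 (13, 21 and 17 counts) than on day 2 (7, 10 and 6 counts). It passed the filter on low counts through its day 5 libraries alone.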
